A study of Mus musculus with 12 samples.

Results

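The genes examined here encode the constitutive proteasome, the large protease that degrades ubiquitin-tagged proteins in every cell. Members were the genes whose symbol is Psma, Psmb, Psmc or Psmd followed by a number, without the interferon-inducible catalytic subunits Psmb8, Psmb9 and Psmb10. The rule found 36 of the 41128 genes in the table. Of these, 16 belong to the core particle (8 Psma and 8 Psmb genes). The other 20 were counted with the regulatory particle (6 Psmc and 14 Psmd genes), among them the assembly chaperones Psmd5, Psmd9 and Psmd10. No measured value entered the rule.

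Livers of C57BL/6 mice were compared between germ-free mice (GF), which had stayed in sterile isolators, and conventionalized mice (CV), which left the isolators at weaning on day 21 and spent 3 weeks in cages with dirty bedding. All mice were 6 weeks old at collection, and the labels name no transgene or drug. Each condition held 3 males and 3 females by label, with 1 poly(A)-selected library of whole liver RNA for each mouse. Microbes and the change of housing that came with the move cannot be told apart in this design.

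The core particle is a barrel of stacked rings. The outer rings are built from alpha subunits (Psma), which gate the entry, and the inner rings from beta subunits (Psmb), of which Psmb5, Psmb6 and Psmb7 carry the peptide-cutting sites. The regulatory particle caps the barrel: a ring of ATPases (Psmc) unfolds substrates, and non-ATPase subunits (Psmd) bind ubiquitin chains, remove them and hold the particle together. In liver, the complex turns over short-lived enzymes and damaged proteins, and cells are known to raise its genes together through Nfe2l1 when proteasome capacity falls short.

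Values below are read counts per gene divided by the size factor of the library, as deposited. The recovered libraries held 5993619 to 10975691 reads in GF and 8890529 to 15290835 reads in CV. Of these, 4515 to 15726 fell on members in GF and 30619 to 64513 in CV, without overlap. In the library labelled CV male 3 the Xist value was 2382 and Y-linked genes had 0 reads, which goes against its label, so the male counts and the main male values are also given without it. A group of 6 abundant loci (Lars2, both mitochondrial ribosomal RNA genes and 3 predicted genes) was chosen by a mean share over 2% of the reads in GF libraries. Loci abundant only in CV could not enter, so the choice itself favours a larger share in GF. The group held 40.9 to 68.5% of the reads in GF libraries and 5.10 to 21.3% in CV libraries. CV males 2 and 3 had 20.7 and 21.3%, and the other 4 CV libraries 5.10 to 7.63%. Outside these loci, GF libraries held 1886932 to 5399556 reads and CV libraries 6994374 to 14453077, without overlap. All 10 hepatocyte markers were present in both conditions, and their summed value was 126067 to 499425 in GF and 437649 to 680574 in CV libraries. The summed value of 5 erythroid markers was 2777 to 32885 in GF and 916 to 3159 in CV libraries, and that of 7 lymphocyte markers 332 to 614 and 78.6 to 159. The part of these shares and markers in the results below was not tested. In whole liver, fewer cells of a type and less RNA per cell cannot be told apart.

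The sequence upstream of the members is shown first, because proteasome genes are known to share short promoter motifs. RefSeq windows on GRCm38.p6, reaching from 250 bases before to 50 bases after each transcript start, were found for 29 of the 36 members (31 windows). The core of the antioxidant response element, TGACNNNGC, which Nfe2l1 and Nfe2l2 bind, was searched on both strands and lay in 5 windows, those of Psmb5, Psmb6, Psmd9, Psmc6 and Psmd12 (16.1%, against 14.2% of the windows of all tested genes and 12.4% of all windows). The letters CGGAAG, the core that ETS factors bind, lay in 19 windows (61.3%, against 30.4% of the windows of tested genes and 16.9% of all windows). CCAAT lay in 12 windows (38.7%, against 37.5% and 37.4%), and TGACGTCA in 0 (against 2.92% and 1.79%). A match of letters is a description and does not show that a factor bound there.

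The first 3 of these stretches, of 120 bases each, carry TGACNNNGC close to the start, in capitals. They lie upstream of Psmb5 (chr14:54618023-54618142, minus strand), Psmb6 (chr11:70525237-70525356, plus strand) and Psmd9 (chr5:123228070-123228189, plus strand). In the other 4, upstream of Psma4 (chr9:54950670-54950789, plus strand), Psmc1 (chr12:100110034-100110153, plus strand), Psmd2 (chr16:20651532-20651651, plus strand) and Psmd13 (chr7:140882274-140882393, plus strand), the capitals mark CGGAAG or its reverse complement CTTCCG, as examples from the alpha ring, the ATPases and the non-ATPase subunits.
Psmb5: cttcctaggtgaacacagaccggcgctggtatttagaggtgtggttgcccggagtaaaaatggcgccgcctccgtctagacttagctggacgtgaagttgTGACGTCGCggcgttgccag
Psmb6: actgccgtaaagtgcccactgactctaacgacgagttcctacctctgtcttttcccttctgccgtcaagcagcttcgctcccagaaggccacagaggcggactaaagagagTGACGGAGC
Psmd9: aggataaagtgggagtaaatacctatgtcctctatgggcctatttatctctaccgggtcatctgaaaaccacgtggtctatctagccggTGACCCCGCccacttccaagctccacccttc
Psma4: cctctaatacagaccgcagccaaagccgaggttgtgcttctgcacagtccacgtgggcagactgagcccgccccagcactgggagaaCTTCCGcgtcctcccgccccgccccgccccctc
Psmc1: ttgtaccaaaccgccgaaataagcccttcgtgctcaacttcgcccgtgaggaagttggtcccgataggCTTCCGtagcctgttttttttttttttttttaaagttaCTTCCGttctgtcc
Psmd2: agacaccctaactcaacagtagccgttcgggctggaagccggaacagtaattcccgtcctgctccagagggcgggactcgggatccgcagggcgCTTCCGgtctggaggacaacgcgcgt
Psmd13: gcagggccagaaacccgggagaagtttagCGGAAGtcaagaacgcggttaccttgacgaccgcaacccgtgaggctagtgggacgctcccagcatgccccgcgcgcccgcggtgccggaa

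To ask how the proteasome genes stood in CV against GF livers, each gene was tested with limma on log2(value + 1). Of the 36 members, 34 had a mean value of at least 10 and entered the test. The testis-specific alpha subunit Psma8 had a mean of 4.14 (0 to 13.3 over the 12 libraries), and the thymus-specific Psmb11 had 0 reads in every library, which allows up to 3 reads in each. Over both sexes, 34 of 34 members were called higher in CV livers and 0 lower at an adjusted p under 0.05, while 32.3% of all 11782 tested genes were called higher. The median change was 1.18 on the log2 scale, a 2.26-fold difference, against a median of 0.07 over all genes. In 24 members every CV library lay above every GF library, as in 15.6% of all tested genes. Without CV male 3 the count over both sexes was again 34.

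In females 34 of 34 members were called higher in CV (29.8% of all genes), and in males 17 of 34 (14.1% of all genes), with 0 lower in either sex. For 34 members in females (34.0% of all genes) and 25 in males (22.0% of all genes) the lowest CV library exceeded the highest GF library. Median changes were 1.56 in females and 0.78 in males on the log2 scale. The count in males was 11 without CV male 3 (12.1% of all genes) and 6 without GF male 1 (6.15%). It was 8 without CV male 1 (8.20%) and 11 without GF male 3 (8.35%). Without CV male 3 the median change in males was 0.87, and 26 members did not overlap between conditions (26.3% of all genes). The 11 still called were Psma1, Psma5 and Psma6 of the alpha ring, Psmb2 and Psmb7 of the beta ring, the ATPase Psmc2, the non-ATPase subunits Psmd3, Psmd6, Psmd8 and Psmd13, and the chaperone Psmd5.

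**Figure D1:**
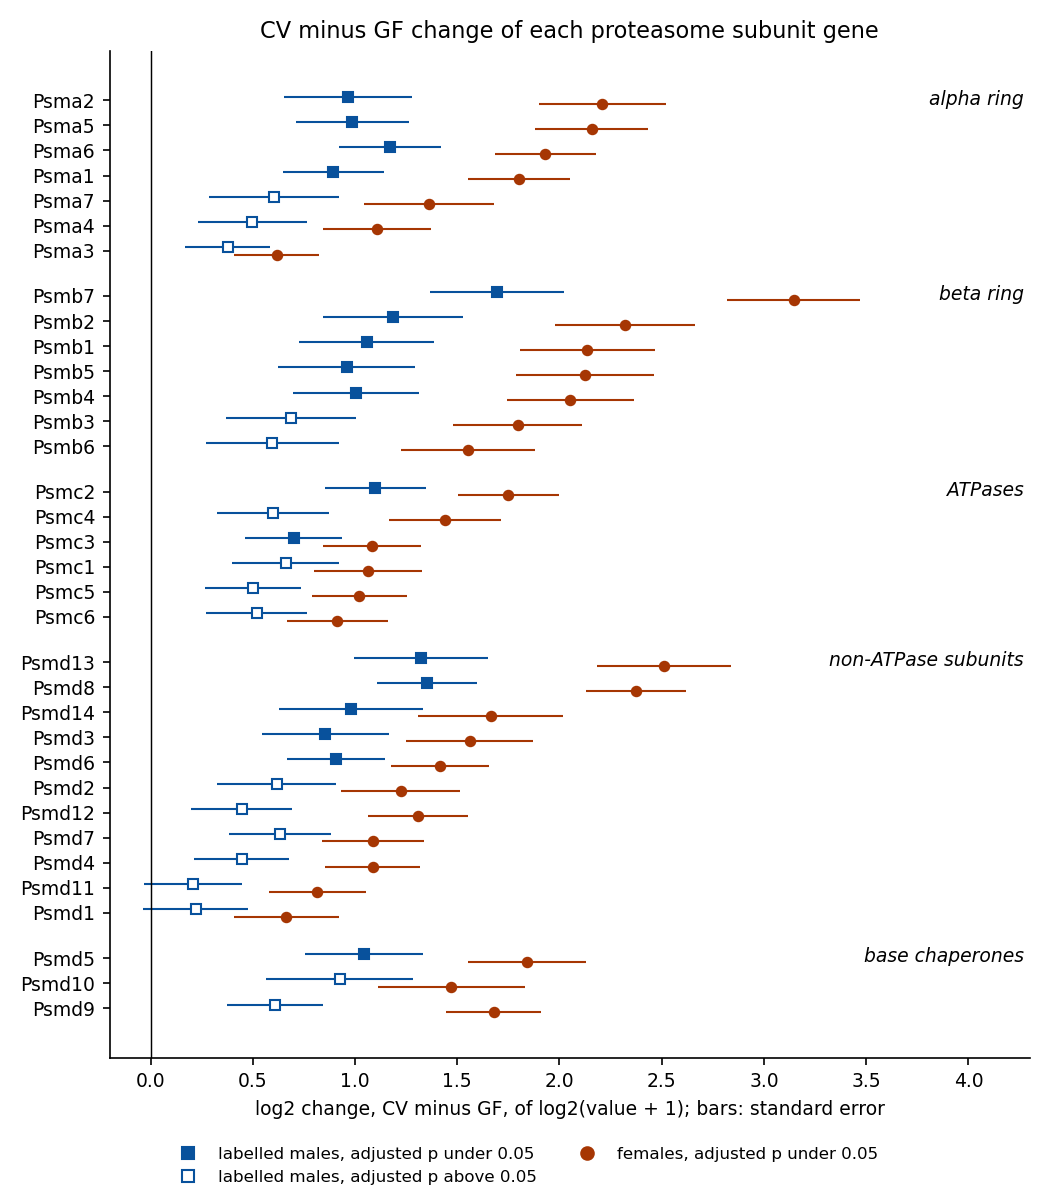
Log2 change of each of the 34 tested subunit genes, CV minus GF, in labelled males (blue squares) and females (orange circles), grouped by class of subunit and ordered within a class by the change over both sexes. Bars are standard errors from the fit (3 libraries per group) and open squares did not pass the threshold; all 34 points lie further right in females than in males.

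The change was larger in females than in males for each of the 34 members (33 when scaled to the reads outside the abundant loci, and 22 with their share as a covariate). Over all genes the median of this difference was 0.06 on the log2 scale, and -0.23 when scaled to those reads. In GF libraries the share of the abundant loci was 57.4 to 68.5% in females and 40.9 to 50.8% in males. Labelled sex and that share therefore cannot be told apart in GF libraries. The difference between the sexes passed for 0 of the members in limma (0.00% of all genes), with a lowest adjusted p of 0.417. At an unadjusted p under 0.05 it held for 15 members and for 1382 of all genes, and edgeR and DESeq2 on the recovered reads also called 0 members. The mean log2 value over the core genes was 8.29 ± 0.51 (SD, n = 3) for GF females. For GF males it was 9.22 ± 0.43 (SD, n = 3), while CV females reached 10.17 ± 0.19 (SD, n = 3) and CV males 10.12 ± 0.07 (SD, n = 3). The libraries of GF males and GF females overlapped. Between labelled males and females over both conditions, 0 members were called by limma (1.16% of all genes), 8 had an unadjusted p under 0.05 (11.0% of all genes), and edgeR and DESeq2 also called 0. The male minus female difference was above 0 for 30 of 34 members, for 26 once length and GC content were accounted for, and for 17 when scaled to the reads outside the abundant loci. In the same order, its median over all genes was 0.03, 0.02 and -0.12 on the log2 scale.

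Alpha-ring genes are described first. All 7 tested were called higher over both sexes, with a median change of 1.35 on the log2 scale, and 4 of them were also called in males (Psma1, Psma2, Psma5 and Psma6). Psma2 had the largest change of the ring, just above Psma5 (1.57). Its value was 414, 882 and 554 in GF males, 273, 391 and 169 in GF females, 1144, 1071 and 1238 in CV males, and 1024, 1267 and 1390.2 in CV females. The 12 libraries did not overlap between conditions, and GF male 2 came closest to the CV libraries. Psma2 rose by 1.59 on the log2 scale (SE 0.22, limma adjusted p = 1.86e-05).

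Psma3, an alpha subunit too, changed least in this ring. Its value was 848, 910.3 and 832 in GF males, 761, 806 and 784 in GF females, 1201, 1122 and 1046 in CV males, and 1073, 1234 and 1311 in CV females. Replicates lay close together, and the conditions did not overlap. Psma3 rose by 0.50 on the log2 scale (SE 0.15, limma adjusted p = 0.00811). Psma4 (0.80) and Psma7 (0.98) had overlapping libraries in males.

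In the beta ring 7 of 7 tested genes were called higher over both sexes, with a median change of 1.54 on the log2 scale, and 5 of 7 in males. Psmb7, the trypsin-like subunit (ENSMUSG00000026750, GRCm38 chr2:38588036-38644087, minus strand), had the largest change of all members. Its value was 171, 345 and 228 in GF males, 89.1, 159.6 and 63.3 in GF females, 1006, 720.3 and 635 in CV males, and 755, 943 and 903 in CV females. The lowest CV library was CV male 3, and it still exceeded the highest GF library. Psmb7 rose by 2.42 on the log2 scale (SE 0.23, limma adjusted p = 9.92e-07), a 5.35-fold difference, with 1.69 (SE 0.33) in males, 1.84 (SE 0.36) in males without CV male 3, and 3.15 (SE 0.33) in females. Exons of Psmb7 share 405 bases with Nek6, a kinase gene on the opposite strand whose log2 change was 1.43 (SE 0.21), and the strand setting of the counting is not given in the sources used here, so the value of Psmb7 is uncertain.

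Psmb5, the chymotrypsin-like subunit (ENSMUSG00000022193, GRCm38 chr14:54614119-54618022, minus strand), had values of 304, 683 and 472 in GF males, 204, 338 and 121 in GF females, 940.5, 832 and 926 in CV males, and 767, 997 and 915 in CV females. No GF library reached the lowest CV library. Psmb5 rose by 1.54 on the log2 scale (SE 0.24, limma adjusted p = 4.50e-05) over both sexes, 2.13 (SE 0.34) in females and 0.96 (SE 0.34, limma adjusted p = 0.0416) in males. The call in males was lost in 21 of 31 alternatives, among them leaving out any 1 of 9 libraries, with adjusted p-values from 0.00582 to 0.924, and without CV male 3 it was 0.081 in limma.

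Psmb6, the caspase-like subunit (ENSMUSG00000018286, GRCm38 chr11:70525367-70527858, plus strand), changed least in the beta ring. Its value was 1084, 2422 and 1431 in GF males, 806, 1072 and 514 in GF females, 2081, 2203 and 2835 in CV males, and 1789, 2429.7 and 2584 in CV females. GF male 2 lay inside the range of the CV libraries, and the females did not overlap. Psmb6 rose by 1.07 on the log2 scale (SE 0.23, limma adjusted p = 7.65e-04) over both sexes and 1.55 (SE 0.33) in females, and 0.60 (SE 0.33, limma adjusted p = 0.175) in males did not pass, nor did 0.46 (limma adjusted p = 0.366) in males without CV male 3. The value per kilobase of exon of Psmb6 was 9.12 to 13.2 times that of Psmb7 in GF libraries and 3.01 to 6.49 times in CV libraries, with no overlap between conditions.

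**Figure D2:**
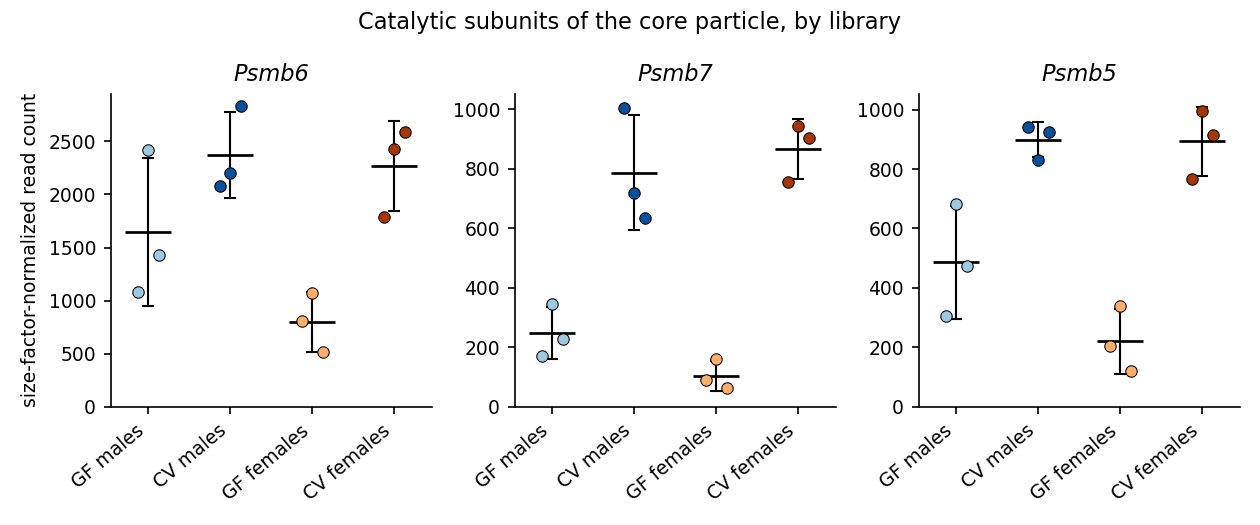
Size-factor-normalized read count of the catalytic subunit genes Psmb6, Psmb7 and Psmb5 (vertical axes from 0, with a scale of their own) in each of the 12 libraries by condition and labelled sex; horizontal lines are means and bars standard deviations of 3 libraries. For Psmb7 and Psmb5 every CV library lies above every GF library, while for Psmb6 GF male 2, at 2422, lies among the CV libraries.

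The remaining beta subunits are structural. Psmb1, Psmb2, Psmb3 and Psmb4 had log2 changes of 1.597, 1.75, 1.24 and 1.53 over both sexes, and of these only Psmb3 was not called in males (0.69, SE 0.32, limma adjusted p = 0.111). Without CV male 3, Psmb2 alone of these 4 was called in males.

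The 6 ATPases that unfold substrates, Psmc1 to Psmc6, were all called higher over both sexes and in females, and 2 of them, Psmc2 and Psmc3, in males. Their median change was 0.88 on the log2 scale. Psmc2 changed most. Its value was 218, 286 and 310.4 in GF males, 192, 245 and 192 in GF females, 781, 460.3 and 533 in CV males, and 625, 749.7 and 737 in CV females. CV male 1 stood highest, and the conditions did not overlap. The log2 change was 1.42 (SE 0.17, limma adjusted p = 6.03e-06).

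Psmc6 changed least of the ATPases. Its value was 281, 291 and 225 in GF males, 258, 325 and 178 in GF females, 443, 338 and 364 in CV males, and 438, 441 and 519 in CV females. CV male 2 (338) and GF female 2 (325) stood next to each other. Psmc6 rose by 0.72 on the log2 scale (SE 0.17, limma adjusted p = 0.0021), and scaling to the reads outside the abundant loci left 0.28 (limma adjusted p = 0.107). Over 30 alternatives the adjusted p ran from 7.34e-06 to 0.956, and 3 lost the call.

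Among the 11 non-ATPase subunits, 11 were called higher over both sexes, with a median change of 0.92 on the log2 scale, and 5 in males (Psmd3, Psmd6, Psmd8, Psmd13 and Psmd14). Psmd13, a subunit of the lid, changed most. Its value was 131, 148 and 189.9 in GF males, 72.5, 146 and 80.5 in GF females, 664, 335 and 259.8 in CV males, and 541, 528 and 571 in CV females. CV males 2 and 3 fell between the GF libraries and the other 4 CV libraries. Psmd13 rose by 1.92 on the log2 scale (SE 0.23, limma adjusted p = 5.46e-06). Its exons share 152 bases with Sirt3 on the opposite strand (log2 change 0.48, SE 0.18), so this value is uncertain as well. Psmd8, another lid subunit, had a log2 change of 1.86 (SE 0.17).

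Psmd14 is the deubiquitinase that removes ubiquitin chains before a substrate enters the core. Its value was 137, 318 and 209.7 in GF males, 131, 223 and 84.3 in GF females, 597, 324 and 367 in CV males, and 442, 436 and 414 in CV females. The conditions met at GF male 2 (318) and CV male 2 (324) without overlapping. Psmd14 rose by 1.32 on the log2 scale (SE 0.25, limma adjusted p = 2.69e-04).

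Psmd4, a ubiquitin receptor, had values of 700.2, 922 and 706 in GF males, 471, 614 and 414 in GF females, 1151, 915 and 1096 in CV males, and 966, 1061 and 1122 in CV females. GF male 2 lay above CV male 2. Psmd4 rose by 0.77 on the log2 scale (SE 0.16, limma adjusted p = 7.59e-04), and its change was -0.0206 once the trend with transcript length and GC content had been taken out.

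Psmd2, a scaffold of the base that also binds ubiquitin and shuttle receptors, had values of 499.7, 508 and 376 in GF males, 350.2, 476 and 345 in GF females, 1133, 575 and 529 in CV males, and 1125, 779 and 841 in CV females. Within CV males the first library stood at the level of the first CV female, and the other two were closest to the GF range. The log2 change was 0.92 (SE 0.20, limma adjusted p = 0.00106).

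Psmd1, the other large scaffold of the base, had the smallest change of all members. Its value was 529, 511 and 526 in GF males, 379, 516 and 485 in GF females, 899.9, 454 and 551 in CV males, and 754, 653 and 769 in CV females. CV male 2 was below 5 of the 6 GF libraries. The log2 change was 0.44 (SE 0.18, limma adjusted p = 0.0427). It was 0.0054 (limma adjusted p = 0.979) when scaled to the reads outside the abundant loci, and edgeR gave an adjusted p of 0.0592. The call was lost in 16 of 30 alternatives, among them leaving out any 1 of 8 libraries (GF males 1 to 3, GF female 1, CV male 1 or CV females 1 to 3), with adjusted p-values from 1.74e-04 to 0.979.

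Psmd5, Psmd9 and Psmd10 share the symbol root but are chaperones that assemble the base and leave the finished particle. All 3 were called higher over both sexes, and Psmd5 alone in males. Psmd5 had values of 84.2, 89.2 and 80.8 in GF males, 51.3, 55.9 and 72.8 in GF females, 296, 147 and 124 in CV males, and 218, 226 and 201 in CV females, which was a rise of 1.44 on the log2 scale (SE 0.20, limma adjusted p = 2.15e-05). CV male 1 was the highest library. Psmd9 had values of 214, 230.2 and 252 in GF males, 145, 192 and 107 in GF females, 391, 333 and 339.8 in CV males, and 481, 457 and 451 in CV females, which was a rise of 1.14 on the log2 scale (SE 0.17, limma adjusted p = 2.51e-05). For both genes every CV library lay above every GF library.

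Core and regulatory genes were then set against each other, with the chaperones Psmd5, Psmd9 and Psmd10 among the regulatory genes. Over both sexes the median log2 change was 1.54 for the 14 core genes and 0.97 for the 20 regulatory genes. In males it was 0.96 and 0.65, with 9 of 14 and 8 of 20 called (14.1% of all genes). In females it was 1.99 and 1.36, with all called (29.8% of all genes). Without CV male 3 (12.1% of all genes) the core genes still called in males were Psma1, Psma5, Psma6, Psmb2 and Psmb7. The regulatory genes still called were Psmc2, Psmd3, Psmd5, Psmd6, Psmd8 and Psmd13. The mean log2 value of the core genes exceeded that of the regulatory genes by 0.70, 1.24 and 0.97 in GF males and by 0.74, 1.32 and 1.37 in CV males, so the male groups overlapped. It did so by 0.44, 0.76 and 0.21 in GF females and by 0.77, 1.07 and 1.01 in CV females, where the highest GF library (0.765) lay just under the lowest CV library (0.774). CV minus GF, this difference was 0.33 over both sexes, 0.17 in males and 0.48 in females.

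In males the value rested on single libraries. It was 0.06 without CV male 3, 0.09 without CV male 2 and 0.04 without GF male 1. It was 0.31 without GF male 2 and 0.38 without CV male 1. With CV male 1 as the only CV male, that is without CV males 2 and 3, it was -0.23. Those 2 libraries had regulatory means of 8.73 and 8.79, under the 9.17 to 9.42 of the other 4 CV libraries, while their core means of 10.04 and 10.16 lay inside the 9.95 to 10.29 of the others. They were also the CV libraries with the larger share of reads in the abundant loci. A fit with that share as a covariate is given below, but it cannot tell the share from the condition.

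**Figure D3:**
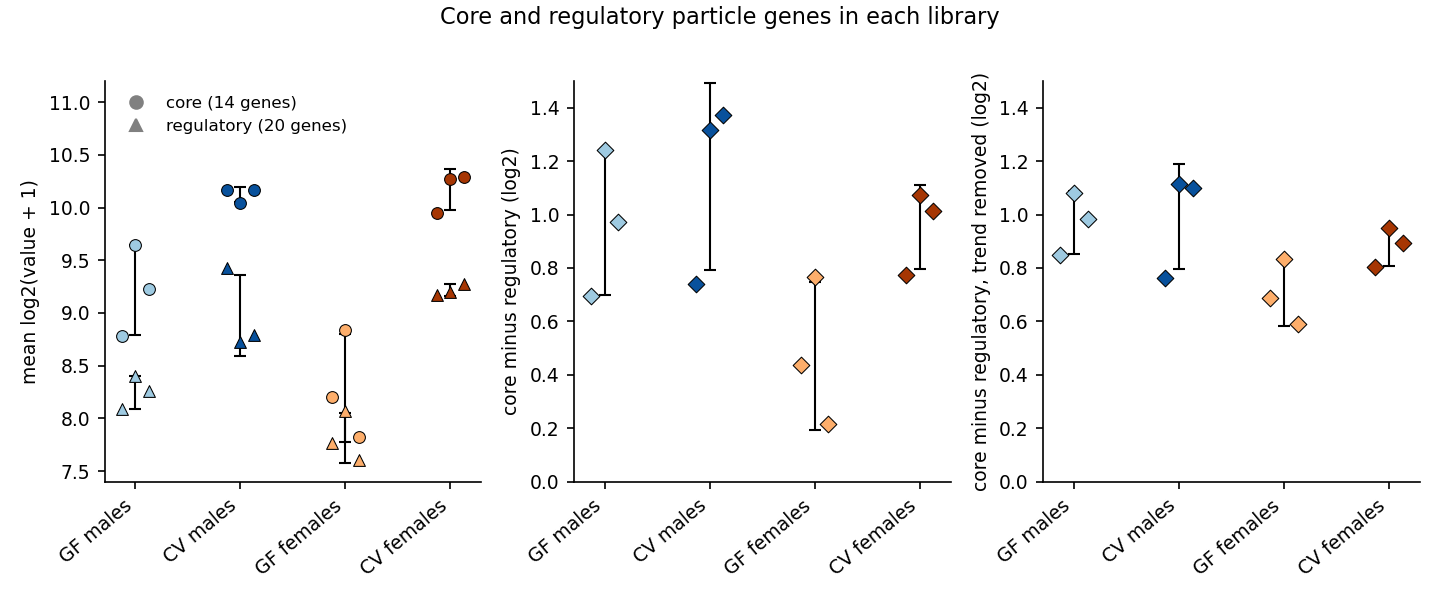
Left, mean log2(value + 1) of the 14 core genes (circles) and the 20 regulatory genes (triangles) in each library; middle, core minus regulatory mean; right, the same after removal of the trend with transcript length and GC content from each library (bars are standard deviations of 3 libraries). In the middle panel GF and CV males overlap, with CV male 1 at 0.74 beside 1.32 and 1.37, and in the right panel the groups overlap in both sexes.

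Transcript length moved with the change across the whole transcriptome. Over 11731 tested genes with an annotated length, Spearman's rho between length and log2 change was -0.39, and over the 34 members -0.33, as a description across genes that share the same libraries. Core genes were shorter, with a median transcript of 1120 bases against 1614 for regulatory genes and 2645 for all tested genes. Within each part the rank correlation was small (rho 0.09 over 14 core genes and -0.13 over 20 regulatory genes). Among genes of similar length (20 bins), 34 of 34 members lay above the median of their bin and 18 above its upper quartile, 10 of 14 core and 8 of 20 regulatory genes.

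**Figure D4:**
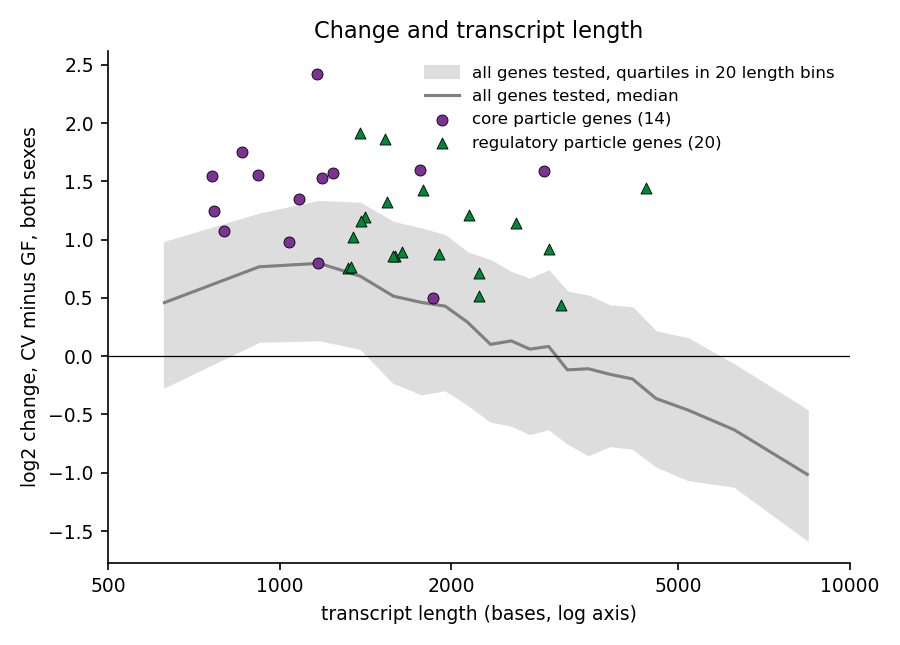
Log2 change over both sexes of the 14 core (circles) and 20 regulatory genes (triangles) against transcript length in bases (log axis). The grey line and band are the median and quartiles of all 11731 tested genes with an annotated length in 20 bins. The line rises from 0.46 near 627 bases to 0.80 near 1172 bases and falls to -1.01 near 8423 bases. Each member lies above the line.

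With the trend on length and GC content taken out of each library, 23 of 34 members were called higher over both sexes (29.5% of all genes), 9 in males (11.8%) and 24 in females (26.5%). Median log2 changes were then 0.76 for core and 0.64 for regulatory genes, and the core minus regulatory difference was 0.10 over both sexes, 0.02 in males and 0.18 in females. Per library the difference ran from 0.85 to 1.08 in GF males, 0.76 to 1.11 in CV males, 0.59 to 0.83 in GF females and 0.80 to 0.95 in CV females, so that the groups overlapped in both sexes. Members that no longer passed over both sexes included Psma3, Psma4, Psma7, Psmb6 and 4 of the 6 ATPases.

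Values were also scaled to the reads outside the abundant loci, which were chosen by their share in GF libraries. The median of all genes then moved to -0.35 on the log2 scale, and that of the members was 0.75. On that scale 30 of 34 members were called higher over both sexes (18.8% of all genes), 11 in males (7.70%) and 28 in females (16.4%). The 4 that did not pass over both sexes were Psma3, Psmc6, Psmd1 and Psmd11. Summed over members, the share of these reads was 0.239 to 0.343% in GF and 0.431 to 0.488% in CV libraries, without overlap. In a limma fit with that share of the abundant loci added, 0 of 34 members and 7 of 11782 genes (all lower) were called over both sexes. At an unadjusted p under 0.05 it was 0 members and 1038 of all genes. The groups account for 95.4% of the variance of that share, so the share and the condition cannot be told apart in this fit.

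Levels of the subunits were described per kilobase of exon, with all annotated exons of a gene counted, so the order depends on that length. For Psmb1, at place 17 in CV, the exons spanned 3427 bases, against a median transcript of 1758 bases. The trend with transcript length was not removed from these levels. In CV livers Psmb6 had the highest level, 2908 ± 469 (SD, n = 6) per kilobase, and its lowest library (2242) lay above the highest of Psmb3 (2174), the next in order at 1717 ± 283 (SD, n = 6). Psma7 followed at 1437 ± 255 (SD, n = 6), which overlapped Psmb3. Next came Psmb2 at 1185, Psmb4 at 1036, Psmb5 at 997 and Psma6 at 948, whose neighbouring ranges overlapped. In all 12 libraries Psmb6 stood above Psmb5 and Psmb5 above Psmb7.

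The first 10 places in CV were core genes. The highest regulatory genes were the ATPases Psmc4 at 632 ± 144 (SD, n = 6) and Psmc5 at 588 ± 70.2 (SD, n = 6), and the receptor Psmd4 at 572 ± 50.4 (SD, n = 6), each within the spread of the next. The chaperones Psmd9, Psmd10 and Psmd5 took the last 3 places in CV at 157, 62.5 and 46.0 per kilobase. In GF the order was close to this at the top, with Psmb6 at 1531 ± 831 (SD, n = 6), but Psmb7 stood at place 23 in GF and place 10 in CV, and Psma3 at place 13 in GF and 18 in CV. The alpha subunits, though present in equal copies in the particle, ranged from 408 (Psma2) to 1437 (Psma7) in CV.

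**Figure D5:**
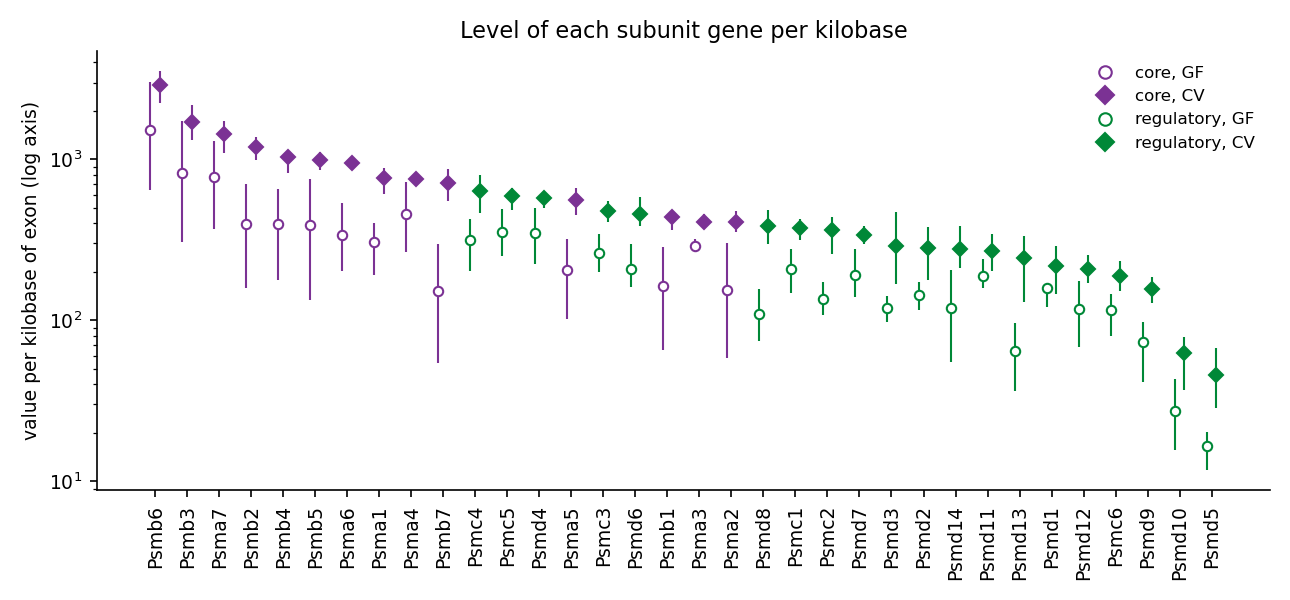
Mean value per kilobase of exon (log axis) of the 34 tested subunit genes in 6 GF (open circles) and 6 CV libraries (filled diamonds), ordered by the CV mean; vertical lines run from the lowest to the highest library. Core genes (purple) fill the first 10 places, and the base chaperones Psmd9, Psmd10 and Psmd5 the last 3.

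The spread between libraries was described by the coefficient of variation. The coefficient of variation over the 6 GF libraries had a median of 50.3% in core and 26.0% in regulatory genes, and over the 6 CV libraries 12.8% and 19.6%. Psma3 was an exception among core genes, at 6.43% in GF libraries. Within groups of 3 the medians for core and regulatory genes were 31.6 and 16.8% in GF males, 37.5 and 20.1% in GF females, 9.96 and 26.8% in CV males, and 13.6 and 8.32% in CV females. Of the 4 groups, the median was higher for regulatory genes in CV males only. GF libraries held fewer member reads than CV libraries, and the part of read depth in the spread was not tested.

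The inducible subunits Psmb8, Psmb9 and Psmb10, which replace Psmb5, Psmb6 and Psmb7 in the immunoproteasome, give a comparison outside the member list. Their log2 changes over both sexes were 0.91 (SE 0.23), 0.95 (SE 0.21) and 0.83 (SE 0.19), with limma adjusted p-values of 0.00257, 9.15e-04 and 0.00143. Per kilobase, Psmb7 was 0.384 to 1.16 times Psmb10 in GF libraries and 1.31 to 3.97 times in CV libraries, without overlap. Psmb5 was 1.81 to 8.49 times Psmb8 in GF and 4.04 to 8.54 times in CV libraries, and Psmb6 was 9.08 to 18.4 times Psmb9 in GF and 9.85 to 24.6 times in CV libraries, both with overlap. The list also held the activator genes Psme1 and Psme2 (0.97, SE 0.20, for Psme2). Over both sexes 5 of 5 of its genes were called higher (32.3% of all genes). In males 1 was called (14.1% of all genes) and in females 5 (29.8%). Once the length and GC trend was removed, limma called 0 over both sexes (29.5% of all genes), and 0 also at an unadjusted p under 0.05.

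The counts for other genes of the pathway stand against 32.3% of all tested genes called higher and 28.7% called lower over both sexes. Of the assembly factors 4 of 5 tested were called higher over both sexes, led by the core chaperone Psmg1 (1.54, SE 0.19), and among alternative activators and inhibitors 2 of 3, led by Psme3 (1.31, SE 0.24). Both regulatory subunits with other names had positive changes, and Adrm1, a ubiquitin receptor, was called (0.70, SE 0.17). Of the proteasome-bound deubiquitinases and shuttle receptors, 3 of 7 were higher and 1 lower. For p97, the ATPase that extracts ubiquitinated proteins, and its cofactors, 4 of 6 were higher, with Nsfl1c at 1.20 (SE 0.17). Of the ubiquitin and E1 enzyme genes 3 of 6 were higher and 1 lower, with Ubb at 1.29 (SE 0.24).

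The list of factors that control proteasome transcription, and of proteins that process Nfe2l1, had 3 of 10 genes called higher and 5 lower, beside the same 32.3% and 28.7% of all genes. Nfe2l1, the activator of proteasome genes, changed by 0.29 on the log2 scale (SE 0.16, limma adjusted p = 0.134) and did not pass, with mean values of 394 and 405 in GF males and females and 500.5 and 475 in CV males and females. Nfe2l2, the regulator of the oxidative stress response, fell by 0.79 on the log2 scale (SE 0.17, limma adjusted p = 9.97e-04). Syvn1, a ubiquitin ligase of the endoplasmic reticulum, fell by 2.61 (SE 0.24, limma adjusted p = 7.58e-07), from means of 2606 and 3209 in GF males and females to 453 and 481 in CV males and females. These are transcript levels and carry no measure of protein or of proteasome activity.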

How the data were processed

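Total RNA from 12 livers was sequenced as stranded poly(A) libraries. The deposited signal per gene is a count that the authors divided by 1 size factor per library; all values were whole multiples of 1 read within 0.01 reads, so reads were recovered. The submitters' processing notes name GRCm38, HTSeq 0.6.1p1 and DESeq2; the aligner and annotation are not given in the sources used here. The paper given with the series describes another experiment, and only its style was used. Transcript lengths, GC content and coordinates came from GENCODE mouse release 21 (40254 of 41128 identifiers).

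Groups and replicate numbers came from the sample titles. The labels name no litters, and p-values measure the spread between these mice. The main test was limma 3.58.1 (R 4.3.3) on log2(value + 1), with all 12 libraries, 1 mean for each of 4 groups, a variance trend, genes with a mean value of at least 10, Benjamini-Hochberg adjustment over 11782 genes and a threshold of 0.05. Fold changes on this scale understate those of low genes. Scripts were tested on simulated data.

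Alternatives were edgeR 4.0.16 and DESeq2 1.42.0 on recovered reads, other pseudocounts, filters and scalings, share covariates, removal of a loess trend (span 0.3) on length and GC content per library, thinning to 1886932 reads, leaving out each library, and a replicate block. The fit without CV males 2 and 3 was added after the data were seen, and it leaves CV male 1 alone in its group. The core minus regulatory difference has no test.

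Members and lists were chosen with earlier results of these data known. All members could be named, with values per library for the catalytic subunits, Psmd14, Psmd4, Psmd2 and the largest and smallest change of each class. Of pathway lists, Nfe2l1, Nfe2l2, Psmb8 to Psmb10 and the gene with the largest absolute change were named, except 1 that is not reported here. The other values given for Psmb1 to Psmb4, Psma4, Psma7 and Psmd8 were chosen after they were seen. Intervals and limits for 0 reads cover counting error only.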

Additional observations from a re-analysis of the deposited data

Results flagged for a closer look

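In GF female 1 the value of Psmd1, a scaffold of the regulatory particle base, was 379, while the other 5 GF libraries ran from 485 to 529. The gap to the nearest library was 0.706 of the range of the 6 GF libraries, above Dixon's critical value for 6 samples. Without that library the log2 change of Psmd1 over both sexes was 0.38 (limma adjusted p = 0.108) in place of 0.44. It was 1 of 34 groups of 6 examined, and chance flags about 1 in 20.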

How the results depend on the processing

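Fits with the share of the mitochondrial ribosomal RNA or of the abundant loci as covariate called 0 members in limma. This held over both sexes, in males and in females. An unadjusted p under 0.05 was found for 10, 6 and 9 members, and for 0, 0 and 0. Of all 11782 genes it was found for 1985, 2289 and 1615, and for 1038, 1269 and 857. The fit with the mitochondrial share called 0 genes of the whole set over both sexes and in females, and 2 higher and 1 lower in males. The core minus regulatory difference in these fits was 1.33 and 0.91 over both sexes, 0.77 and 0.56 in males, and 1.88 and 1.26 in females. Single genes turned in these fits: Psmd1 was -0.65 and -0.41, Psmd2 -0.12 and -0.37, Psmd14 -0.76 with the abundant loci, and Psmd5 -0.36 with the mitochondrial share. The groups hold 93.5 and 95.4% of the variance of these shares, which cannot be told apart from the condition.

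In males 32 members were called when scaled to all reads (all-gene median 0.37, 2825 of 11782 genes called higher). The count was 11 when scaled outside the abundant loci (907 of 11782 genes higher). It was 9 with the length and GC trend removed (1390 of 11731 genes higher), and 6 when a replicate block was added to that (885 of 11731). At a threshold of 0.01 it was 5, beside 1390 of 11782 genes called in either direction. In females the core minus regulatory difference was 0.18 with the trend removed, with and without the replicate block, and Psmd4 was -0.0206 over both sexes in both fits. In males that difference was -0.23 without CV males 2 and 3. The cause was not tested.

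Leaving out 1 library at a time gave 33 to 34 members over both sexes, 6 to 21 in males, 32 to 34 in females, 0 to 2 for the difference between the sexes and 0 for sex. The 2 were Psmd3 and Psmd13 without CV male 1, when 187 genes were called higher and 104 lower. Of all 11782 genes, 3495 to 3956 were called higher over both sexes with 1 library left out. The same range was 725 to 1909 in males and 2961 to 3721 in females. The core minus regulatory difference ran from 0.26 to 0.43 over both sexes, 0.04 to 0.38 in males and 0.35 to 0.63 in females. The replicate numbers did not pair the mice: deviations of same-numbered libraries correlated at -0.23 to -0.09 in males and -0.17 to 0.02 in females. The replicate block alone gave 33 members over both sexes, 13 in males and 32 in females. In the same order, 3639, 1212 and 3295 of 11782 genes were called higher in that fit.

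The other settings (edgeR and DESeq2, pseudocounts, filters, thinning) left the counts within 1.5 times. Of 606 recomputed values of single genes, 523 kept direction and call, 73 lost and 2 gained the call, and 8 turned.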
